A study of Caenorhabditis elegans with 2 samples.

Results

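The peaks described here are binding regions of the nuclear hormone receptor NHR-47 at autosomal promoters that belong to 1 protein-coding gene only. They were chosen by position: the summit of the peak, its point of highest signal, had to lie on an autosome, between −500 bp (upstream) and 200 bp (downstream) of the 5′ end annotated for exactly 1 protein-coding gene. Of the 5357 peaks of the authors' thresholded list, 1275 met this rule (23.8%). They made up 30.0% of the 4257 autosomal peaks (95% Wilson interval 28.6 to 31.3%). Their genes numbered 1241 of 17242 autosomal protein-coding genes, which is 7.20%. Beyond membership of the thresholded list, no signal value entered the choice. That list leaves out regions of low signal. The strength of these peaks, their sequence and the identity of their genes are thus described among thresholded peaks only. The windows bound the distances, and the positions are therefore described without a test.

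Chromatin immunoprecipitation followed by sequencing (ChIP-seq) was done on whole hermaphrodite Caenorhabditis elegans of strain OP481, genotype unc-119(tm4063) III; wgIs481. The integrated transgene wgIs481 supplies NHR-47 fused at its C-terminus to GFP and FLAG, and an anti-GFP antibody was used. One label field gives nhr-47 as the antibody target. The larvae were in the L1 stage, 6 h after synchronization by bleaching and starvation, and the 2 biological replicates formed 1 group with no second condition. All worms carried the transgene and the unc-119 mutation, and neither a strain without the tag nor values of the control libraries were analysed here. With 1 group no comparison of conditions can be tested, so values are given in each replicate, and kinds of region are set side by side without a p-value. Whole larvae hold all tissues, so a signal cannot be placed in a cell type.

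Nuclear hormone receptors are transcription factors that bind DNA through a domain of paired zinc fingers and, in many cases, respond to a small lipophilic ligand. The family is greatly expanded in nematodes, where most members have no known ligand. Promoters are the stretches next to the 5′ ends of genes where RNA polymerase II is recruited. In C. elegans, many messenger RNAs receive a short spliced leader in place of their original 5′ sequence. The annotated 5′ end of such a gene is the splice acceptor, and transcription begins somewhere upstream of it.

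Sequences of the summit with 50 bp on either side are given first, for a few members picked to show sequences described below. They are read from the RefSeq WBcel235 genome (ce11), 5′ to 3′ in the direction of the gene, with the gene's strand beside the coordinates. None of the windows overlaps an annotated exon of a protein-coding gene. The first set holds 5 of the 7 strongest members, which share the 8-base sequence AACACGCT or its reverse complement AGCGTGTT. This sequence was rare, in 18 of the 1275 members. Capitals mark it, and also mark GACGCA or its reverse complement.
rpl-3 (chrIII:3867518-3867618, plus strand): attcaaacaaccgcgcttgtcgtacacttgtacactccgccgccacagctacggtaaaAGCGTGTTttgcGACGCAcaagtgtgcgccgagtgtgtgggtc
tasp-1 (chrIII:10759201-10759301, plus strand): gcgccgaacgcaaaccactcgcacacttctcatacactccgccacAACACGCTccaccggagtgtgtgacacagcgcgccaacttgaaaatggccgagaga
cdc-48.1 (chrII:10563522-10563622, minus strand): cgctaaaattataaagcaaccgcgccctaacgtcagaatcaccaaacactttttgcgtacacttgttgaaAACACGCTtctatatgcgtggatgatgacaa
rpl-35 (chrIII:7854630-7854730, plus strand): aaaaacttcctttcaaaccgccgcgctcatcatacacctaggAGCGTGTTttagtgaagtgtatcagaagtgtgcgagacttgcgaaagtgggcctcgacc
cox-5A (chrIII:12905150-12905250, plus strand): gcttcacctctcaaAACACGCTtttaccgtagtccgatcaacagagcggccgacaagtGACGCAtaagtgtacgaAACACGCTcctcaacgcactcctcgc

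The second set shows strong members with other sequences that were frequent at summits. Capitals mark AGACGCAG, AAACGCGC, AAGTGCGC, GCGCTCCA, GCGCCAGC or GACGCA on either strand, and adjoining matches run together.
sec-61.G (chrV:10897325-10897425, minus strand): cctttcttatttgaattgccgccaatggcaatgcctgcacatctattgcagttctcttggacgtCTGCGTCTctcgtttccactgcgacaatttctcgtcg
ntl-11 (chrIV:15471566-15471666, minus strand): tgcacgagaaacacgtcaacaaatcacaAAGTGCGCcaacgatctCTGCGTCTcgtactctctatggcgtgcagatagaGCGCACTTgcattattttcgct
C47E8.4 (chrV:14685721-14685821, minus strand): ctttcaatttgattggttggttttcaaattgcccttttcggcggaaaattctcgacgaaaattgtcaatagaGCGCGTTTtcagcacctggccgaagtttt
eelo-2 (chrIV:17249855-17249955, plus strand): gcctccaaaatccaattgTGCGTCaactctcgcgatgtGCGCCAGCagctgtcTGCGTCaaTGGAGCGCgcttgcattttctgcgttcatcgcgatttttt
dnj-13 (chrII:11545437-11545537, plus strand): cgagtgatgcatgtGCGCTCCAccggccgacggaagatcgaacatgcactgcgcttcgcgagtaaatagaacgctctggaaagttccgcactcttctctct
pcn-1 (chrIV:4049678-4049778, minus strand): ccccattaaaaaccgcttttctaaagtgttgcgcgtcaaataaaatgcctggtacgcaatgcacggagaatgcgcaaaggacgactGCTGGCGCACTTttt

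The third set holds the strongest member at a nuclear hormone receptor gene, nhr-158, and one of the 3 weakest members of all, nhr-4. Neither holds any of the sequences named above, though the nhr-4 window holds GAGAGA and GGGCGG, which are counted further below.
nhr-158 (chrV:3874455-3874555, minus strand): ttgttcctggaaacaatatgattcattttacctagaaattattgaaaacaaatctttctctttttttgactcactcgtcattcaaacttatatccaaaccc
nhr-4 (chrIV:9879085-9879185, plus strand): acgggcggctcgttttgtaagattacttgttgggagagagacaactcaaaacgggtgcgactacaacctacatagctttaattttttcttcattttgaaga

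Signal is the value that the authors' peak caller gave each region, and it has no unit. For each replicate it was divided by the median over the 5312 thresholded peaks found in both replicates, so that a relative signal of 1 is that of a median peak. The strongest member lay at −286 bp from the 5′ end of rpl-3, which encodes a protein of the large ribosomal subunit, with relative signals of 26.9 in replicate 1 and 24.7 in replicate 2. It was the first region of both replicate lists. The promoter of tasp-1, which encodes a threonine aspartase, followed with 20.8 and 21.6, its summit close to the 5′ end at −56. That of cdc-48.1, which encodes an ATPase that extracts ubiquitinated proteins from complexes, had 19.4 and 19.3. The summit of rpl-35, another gene of the large ribosomal subunit, lay far out at −454 and had 20.03 and 17.7.

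The next places were held by tos-1 (15.7 and 14.9) and Y22D7AL.10 (15.7 and 14.9), for which no function is given here. The promoter of cox-5A, which encodes part of the respiratory enzyme cytochrome c oxidase, had relative signals of 15.1 and 14.7, and that of ints-4, a gene of the Integrator complex that cleaves nascent RNA, had 14.8 and 13.8. The peak of ints-4 was among the few strong ones inside the transcribed region, 28 bp downstream of the 5′ end. After C47E8.4 (14.5 and 13.4) and eelo-2 (13.7 and 12.7), the promoter of sec-61.G, a subunit of the channel that passes proteins into the endoplasmic reticulum, had 12.5 and 13.1. At hsp-1, which encodes a constitutive HSP70 chaperone, the values were 11.9 and 13.1. The histone H4 gene his-37 had 12.3 and 11.8, and iff-2, an eIF5A gene, had 11.6 and 11.9.

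Further members of the strongest 25 were at cmtr-1, which encodes an enzyme that methylates the mRNA cap (11.8 and 11.7), and rps-1, of the small ribosomal subunit (11.9 and 11.4). The promoter of pcn-1, the sliding clamp of DNA replication, had 9.59 and 10.9. That of ntl-11, a subunit of the CCR4-NOT complex that shortens mRNA tails, had 10.3 and 10.2. The promoter of mog-4, which encodes an RNA helicase of the DEAH box family, had 9.94 and 10.1. The values of dld-1, the dihydrolipoamide dehydrogenase of mitochondrial enzyme complexes, were 8.26 and 8.97, and those of eif-3.C, a subunit of translation initiation factor 3, were 8.30 and 8.54. The other genes of the set were Y39E4B.6, ztf-7, wip-1 and Y39B6A.43. All 25 lay within the first 100 regions of both replicate lists, and the widest SD over the 2 replicates among them was 1.65, at rpl-35.

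**Figure D1:**
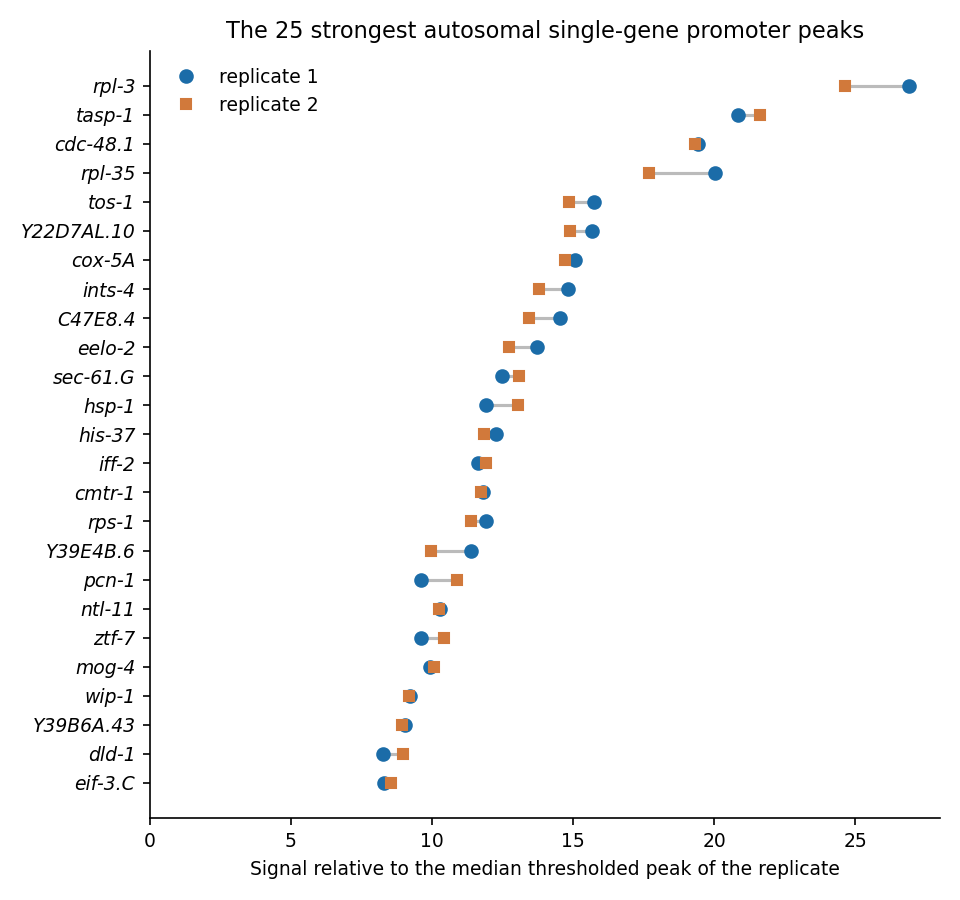
Relative signal (horizontal axis, in units of the median thresholded peak of each replicate) of the 25 strongest autosomal single-gene promoter peaks, named by gene from strongest at the top. Circles are replicate 1, squares are replicate 2, and a grey line joins the pair. The rpl-3 peak stands at 26.9 and 24.7, and the lowest of the set, eif-3.C, at 8.30 and 8.54.

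Most members were far weaker than these. The listed regions had a median width of 371 bp, against 420 bp for other autosomal peaks. Exactly 420 bp was the width of 512 members, and 71 were wider, so these medians depend on how many regions have that width. The highest −log10 q value of the list was carried by 995 members (78.0%), against 67.9% of other autosomal peaks. The pooled signal had a median of 199, with quartiles at 118 and 377 and a range of 77.3 to 4060. The relative signal had a median of 1.23 in replicate 1 and 1.24 in replicate 2, so the typical member was somewhat stronger than the typical peak of the list. Members made up 34% of the 100 strongest peaks of the whole list, 33.5% of the next 400 and 33% of the 500 after these. Their share was 27.4% of the next 1000 ranks, 23.8% of the 1000 after these, and 17.8% of the last 1357. The share was thus about level over the first 1000 ranks and lower in each later group of ranks.

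Peaks at single-gene promoters stood between peaks at shared promoters and peaks outside promoters in strength. Their median relative signals of 1.23 and 1.24 compare with 1.80 and 1.88 at the 507 autosomal peaks in the windows of more than 1 gene. Those at the 2475 autosomal peaks outside promoters were 0.882 and 0.872. The ratio of medians was 0.672 ± 0.0213 against shared promoters (SD, n = 2) and 1.41 ± 0.0118 against peaks outside promoters. Against all 2982 other autosomal peaks it was 1.29 ± 0.00748. On X, the 287 peaks at single-gene promoters had 1.05 and 0.996, and the ratio of autosomal to X medians was 1.21 ± 0.0479. Each of these ratios lay on the same side of 1 in both replicates, and the spread over 2 libraries is the only error available. Of all members, 13.2% (168) ranked among the 500 strongest peaks of the list. The same held for 20.5% (104) of the autosomal shared promoter peaks and 5.74% (142) of the autosomal peaks outside promoters.

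**Figure D2:**
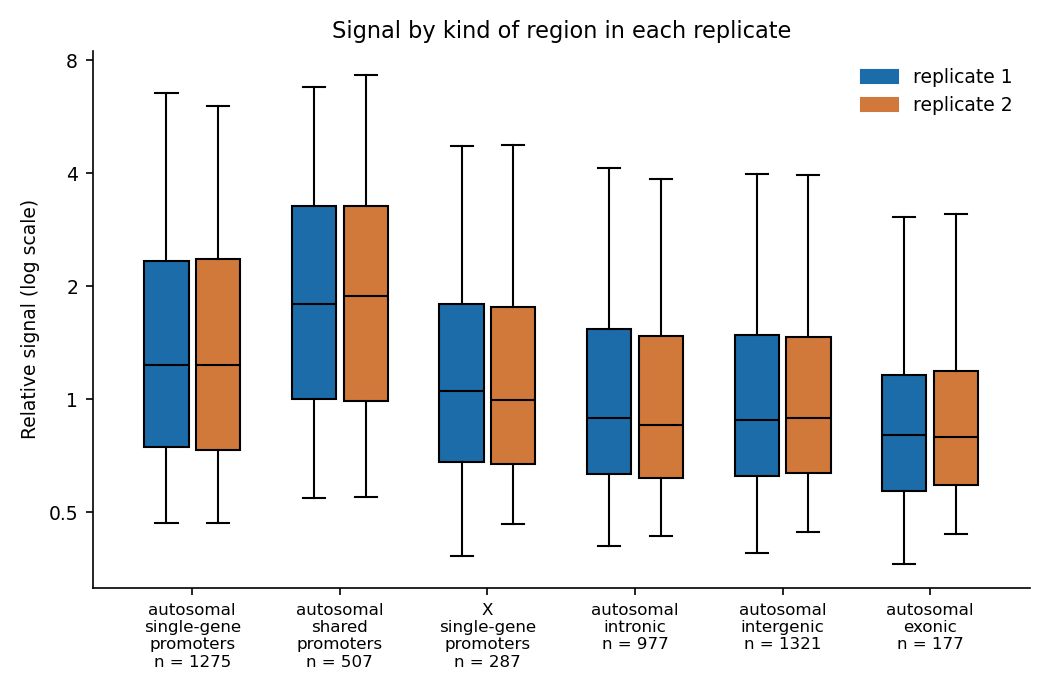
Relative signal (vertical axis, log scale) by kind of region, with replicate 1 on the left of each pair and replicate 2 on the right. Boxes span the quartiles with a line at the median, whiskers reach the percentiles 5 and 95, and n is the number of peaks. The median of autosomal single-gene promoters (1.23 and 1.24) lies below that of shared promoters (1.80 and 1.88) and above those of intronic, intergenic and exonic peaks.

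The replicates gave the same picture of most members. A region of both replicate lists overlapped 1260 of the 1275 members (98.8%, 95% Wilson interval 98.1 to 99.3%). The share was 99.2% of the 2982 other autosomal peaks, so it does not set members apart. Since the thresholded list was derived from these libraries, this overlap follows in part from how it was made. Of the 1260, 1207 had relative signals within 2-fold of each other (95.8%). The SD of the log2 ratio of replicate 2 to replicate 1 was 0.46, against 0.51 over the 2957 other autosomal peaks found in both. The summits called in the replicates were a median of 15 bp apart, and 87.3% lay within 50 bp of each other. Across members, which share both libraries, the replicate signals had a Spearman rho of 0.919 (n = 1260).

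A small group of members rested on 1 replicate. No region of replicate 2 overlapped the peaks of F54D10.5, cebp-2, nhr-252, ciao-1, D2005.4, F53E10.6, spg-7, sut-6, grl-26, rcq-5, aars-2 and skr-16, 12 in all. None of replicate 1 overlapped those of T22C1.1, rom-5 and glrx-10. The strongest of these 15 was F54D10.5, with a relative signal of 2.71 in replicate 1 and no region in replicate 2, and skr-16 had the lowest single value, 0.327 in replicate 1. Among members with both values, replicate 2 was lower by 2.85 on the log2 scale at Y9C2UA.1 (0.705 in replicate 1, 0.0978 in replicate 2). The gap was −2.63 at mab-20, which encodes a semaphorin, −2.56 at btb-14 and −2.39 at F55H12.7. The widest gap, −3.65 at the weaker of the 2 summits of mog-4, arose where its replicate 1 value of 9.94 was that of the same replicate region as the stronger summit. Such a replicate region matched to more than 1 thresholded peak occurred for 9 members in replicate 1 and 5 members in replicate 2.

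Summits lay mainly in the 300 bp upstream of the gene. The median distance from the 5′ end was −176 bp, with quartiles at −293 and −92, and 1152 summits were upstream (90.4%) against 123 at or downstream of it. With the replicates' own summits the median was −177.5 in replicate 1 and −177 in replicate 2. In steps of 100 bp, the one ending 100 bp upstream held the most members, 381, and the next one out held 256. Signal was highest in that outer step, with medians of 1.56 and 1.46, against 1.08 and 1.01 in the 100 bp at the upstream edge of the window. Downstream of the 5′ end the medians were lower, 0.858 and 0.806 for the 77 summits within 99 bp and 0.797 and 0.678 for the 46 summits from 100 to 200 bp. The upstream steps nearer than 400 bp thus all had medians above 1.2 in both replicates, and the downstream steps had medians below 0.9.

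**Figure D3:**
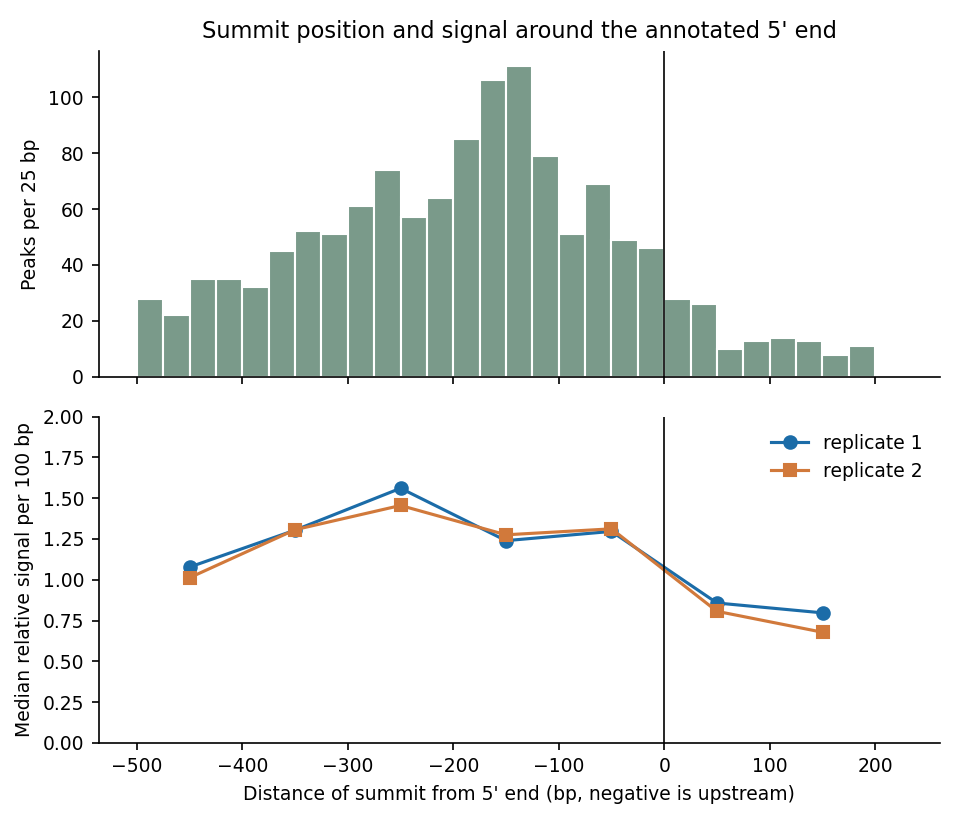
The upper panel counts members per 25 bp of distance between summit and annotated 5′ end (horizontal axis, bp, negative is upstream). The lower panel gives the median relative signal per 100 bp, with circles for replicate 1 and squares for replicate 2, with the highest point at 1.56 and 1.46 and the last at 0.797 and 0.678.

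The annotation places most summits outside genes. Between protein-coding genes lay 1055 (82.7%), with median relative signals of 1.30 and 1.33. Another 70 lay in an intron of a neighbouring gene (1.44 and 1.29) and 20 in the 3′ UTR of one (1.02 and 0.925). Inside the gene itself, 64 summits lay in the 5′ UTR (0.966 and 0.999), 36 in a coding exon (0.712 and 0.595) and 22 in an intron (0.746 and 0.846). The coding exon group was therefore the weakest of the groups with 20 or more members in both replicates.

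Peaks of genes whose 5′ end follows a splice acceptor sat farther upstream. The annotated 5′ end came directly after AG, the last bases of an acceptor, in 543 of the 1241 member genes (43.8%), against 27.7% of all autosomal protein-coding genes. It came directly after TTTCAG, the worm's acceptor consensus, in 22.0% of member genes against 12.3% of all. Read the other way, 11.4% of genes with AG there had a member, against 5.597% of genes without. The median summit lay at −225.5 for the 556 members with AG before the 5′ end and at −137 for the 719 without it, and the replicates' own summits gave −225.5 and −226 against −138 and −138. After TTTCAG it was −243 (n = 279). Their signals were close, with medians of 1.28 and 1.27 after AG against 1.21 and 1.21 without it. The annotated 5′ end coincided with the start codon, with no 5′ UTR given, in 8.70% of member genes against 24.1% of all autosomal genes. Among genes with an annotated 5′ UTR, AG preceded the end of 44.2% of member genes against 30.8% of all, and the median distances were −219 (n = 511) and −132 (n = 653).

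Neighbouring genes also bear on which promoters hold a member. A gene whose upstream neighbour points the same way and ends within 500 bp had a member in 301 of 3269 cases (9.21%, 95% Wilson interval 8.26 to 10.2%). With a tandem neighbour more than 2000 bp away the share was 5.55% (4.68 to 6.58%). Divergent genes over 500 and up to 2000 bp apart had a member in 8.79% of cases, with median relative signals of 1.55 and 1.496. Those over 2000 bp apart had one in 8.63%. A summit in a shared promoter was held by 9.52% of the former and 0.114% of the latter. The member share of the former thus leaves out more promoter summits. Divergent genes within 500 bp had only 3 members, because their windows overlap and such summits count as shared, which 39.6% of these genes had. The low count of close divergent genes is thus a product of the rule. Member genes were a little longer than all autosomal genes, with a median of 2467 bp against 1964 bp, and both had a median of 5 exons. A gene name beyond the sequence name was held by 70.0% of member genes against 55.4% of all.

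The share of genes with a member differed among autosomes. It was 9.43% on III (95% Wilson interval 8.38 to 10.6%) and 9.14% on I, against 5.31% on V (4.72 to 5.96%). Chromosomes II and IV had 6.87% and 6.92%. Median relative signals on the 5 autosomes ranged from 1.15 to 1.30 in replicate 1 and from 1.20 to 1.29 in replicate 2. The central 50% of each autosome held 62.3% of members, against 63.1% of other autosomal peaks and 55.7% of genes. Members were thus placed along chromosomes about as the other autosomal peaks were.

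No promoter held more than 2 member summits, and 34 genes held 2. Their summits were a median of 201.5 bp apart, and in 9 genes both lay in 1 listed interval. At the genes of this set with the strongest summits, the pairs were unequal. The other pairs were not compared. At hlh-11, a gene for a basic helix-loop-helix factor, the summit at −346 had relative signals of 4.23 and 4.40, and that at −137 had 1.82 and 0.819. At brc-1, the worm BRCA1 gene, the summit at −121 had 3.65 and 3.91, and that at −345 had 0.722 and 1.44. The stronger summit of lin-66 had 3.28 and 3.41 and the weaker 0.647 and 1.06.

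Genes of protein synthesis, nuclear transport and the cell cycle carried members at several times the share of all autosomal genes. The lists below were drawn up by gene symbol, and 240 member genes were in any of the 27. Since 7.20% of all autosomal genes had a member, 5.81% a summit in a shared promoter and 13.0% either kind, the share with either kind is also given for the lists of this paragraph and for lists where it bears on the reading. Of 79 cytosolic ribosomal protein genes, 27 had a member (34.2%, 95% Wilson interval 24.7 to 45.2%) and 82.3% had either kind of peak. Of 36 translation factor genes, 11 had a member (30.6%, 18.0 to 46.9%) and 63.9% had either. Of 40 genes for nuclear pore proteins and transport factors, 14 had one (35%, 22.1 to 50.5%) and 72.5% had either. Of 55 genes of the cell cycle and replication list, 14 had one (25.5%, 15.8 to 38.3%) and 34.5% had either. The lower bounds of these 4 intervals lie above the background share, and the intervals cover counting error only. The same held for the mitochondrial ribosomal protein, proteasome, oxidative phosphorylation, ubiquitin, chaperone, vesicle traffic, splicing, RNA polymerase II and chromatin lists. Their lower bounds ran from 7.87 to 12.9%. That of nuclear hormone receptor genes, 7.29%, was only just above. All 27 lists were chosen with earlier results of these data known, so their intervals are a description and not a test.

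The translation lists contained both very strong and ordinary peaks. The 27 ribosomal protein members had median relative signals of 2.63 and 2.69, with a median summit at −286. Besides rpl-3, rpl-35 and rps-1, they ran down to peaks near the median. Translation factor members had medians of 1.35 and 1.29, led by iff-2, eif-3.C and eif-3.B, another gene of initiation factor 3 (8.49 and 8.29). Of 70 mitochondrial ribosomal protein genes, 11 had a member (15.7%) and their medians were 1.04 and 0.969. The strongest of them, mrpl-28 with 8.13 and 7.63 and mrpl-55 with 5.00 and 4.75, stood well apart from that middle. Of 31 aminoacyl-tRNA synthetase genes, which charge tRNAs, 5 had one (7.09 to 32.6%, which includes the background), the strongest being kars-1 (2.56 and 2.48) and mars-1 (2.48 and 2.18).

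Nuclear transport members were led by imb-3, an importin beta gene, with relative signals of 5.21 and 5.53, npp-8, a nucleoporin gene, with 4.81 and 4.62, and ima-2, an importin alpha gene, with 3.45 and 3.82. In the cell cycle list, cdc-48.1 entered by its symbol and is best known for protein extraction, and cdk-5 (7.74 and 6.93) for neuronal functions. After these and pcn-1 came mcm-10, a replication factor, with 4.72 and 4.91. Of 59 chromatin genes, 12 had a member (20.3%), with medians of 2.49 and 2.09. They included efl-1, an E2F gene (6.98 and 6.66), the histone methyltransferase gene set-4 (5.78 and 5.83) and swsn-3, of a SWI/SNF complex (3.86 and 3.93). Of 69 histone genes, which occur in tightly packed divergent groups, 2 had a member (2.90%), namely his-37 and his-72 (1.55 and 1.34), while 15 more had a shared promoter peak, so that 24.6% had either kind.

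Protein turnover, folding and traffic genes had members at shares of 16.7 to 21.8%. The shares with either kind of peak differed more, against 13.0% of all autosomal genes. They were 60.6% for proteasome, 52.8% for oxidative phosphorylation and 43.3% for chaperone genes. Vesicle traffic genes had 34.0%, ubiquitin genes 30.9% and V-ATPase genes 29.4%. Of 55 genes of the ubiquitin list, 12 had one, with medians of 2.18 and 2.00, among them the conjugating enzyme genes ubc-7 (3.08 and 3.20) and ubc-3 (3.13 and 3.12). Of 33 proteasome genes, 6 had one, and the gene of the deubiquitinating subunit rpn-11 (4.30 and 4.69) was well above rpt-1 (1.57 and 1.22). Of 60 chaperone genes, 10 had one, with medians of 2.63 and 2.36. After hsp-1 came dnj-13 (7.85 and 8.54) and dnj-9 (7.21 and 6.86), both for J-domain proteins that assist HSP70. Of 97 vesicle traffic genes, 19 had one, including vps-4, an ATPase of membrane scission (6.54 and 6.41), and sec-24.1, of the COPII coat (5.07 and 5.34). Oxidative phosphorylation genes had 6 of 36, with cox-5B (6.10 and 5.61) and cyc-1 (3.93 and 3.72) next to cox-5A. The V-ATPase genes had 3 of 17 (95% Wilson interval 6.19 to 41.0%, which includes the background), the strongest at vha-9 (1.63 and 1.99).

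RNA synthesis and processing genes had similar shares with a member. With either kind of peak the share was 36.8% for the RNA polymerase II, Mediator and Integrator list and 57.5% for splicing genes. Of 68 genes for RNA polymerase II, Mediator, Integrator and TFIID subunits, 12 had a member (17.6%). The polymerase subunit gene rpb-11 had 8.34 and 7.58, and the TFIID gene taf-4 had 4.42 and 5.24. Of 40 splicing genes, 7 had one, with medians of 3.02 and 2.46, led by snr-4, an Sm protein gene (8.80 and 7.90), and snrp-3 (3.61 and 3.55).

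Nuclear hormone receptor genes had members of modest strength. Of 247 autosomal genes of the list, 26 had one (10.5%, 95% Wilson interval 7.29 to 15.0%), against the background of 7.20%. Only 1 more had a shared promoter peak, so that 10.9% had either kind, below the 13.0% of all autosomal genes. With the narrower window of −300 to 100 bp, 21 had a member (8.50%, 5.63 to 12.6%), against 6.21% of all genes. The list was therefore not clearly apart from the background. The median relative signals of the 27 peaks were 0.893 and 0.910, below the 1.23 and 1.24 of all members. The strongest were at nhr-158 (2.63 and 2.87), nhr-49, a receptor known for control of fat metabolism (2.41 and 1.96), and nhr-119 (2.02 and 1.81). At nhr-47 itself, on V, no summit of the thresholded list or of the pooled list lay within 2000 bp of the gene. Of 80 homeodomain, bHLH and T-box genes, 7 had a member (8.75%, 4.30 to 17.0%) and 10% had either kind. They included hlh-30, a gene for a TFEB-type regulator of autophagy (1.79 and 1.79), and ceh-23 (1.10 and 1.20).

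Chemoreceptor, F-box and C-type lectin families had members below the background share, with intervals that end below 7.20%. Chemoreceptor genes had 15 of 1277 (1.17%, 95% Wilson interval 0.713 to 1.93%), with medians of 0.679 and 0.649, the strongest at srh-269 (1.64 and 1.34). F-box families had 9 of 305 (2.95%, 1.56 to 5.51%), led by fbxb-72 (1.36 and 1.61), and C-type lectins had clec-126 (2.27 and 2.46) and clec-57 (1.65 and 1.66) of 237 (0.844%, 0.232 to 3.02%). For the next 3 lists the interval includes the background, so they are not set apart from it. Collagens and cuticle symbols had 7 of 158 (4.43%, 2.16 to 8.86%). The strongest of those was dpy-30 (1.54 and 1.66), which shares only the symbol class and encodes a subunit of histone methyltransferase complexes, and col-10, a collagen gene, had 0.781 and 0.768. Cytochrome P450 genes had 2 of 67 (0.822 to 10.2%), cyp-13A2 and cyp-33C4, and UDP-glucuronosyltransferase genes had 1 of 63 (0.281 to 8.46%), ugt-20, with no relative signal above 0.757 at these 3. Genes for neuropeptides and insulin-like peptides had 0 of 107, which allows a share of up to 2.80%, but 33 held a region below the threshold. Major sperm protein genes had 0 of 31, which allows up to 9.68% and so does not separate them from the background, and the intestine symbols 0 of 52, which allows up to 5.77%.

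**Figure D4:**
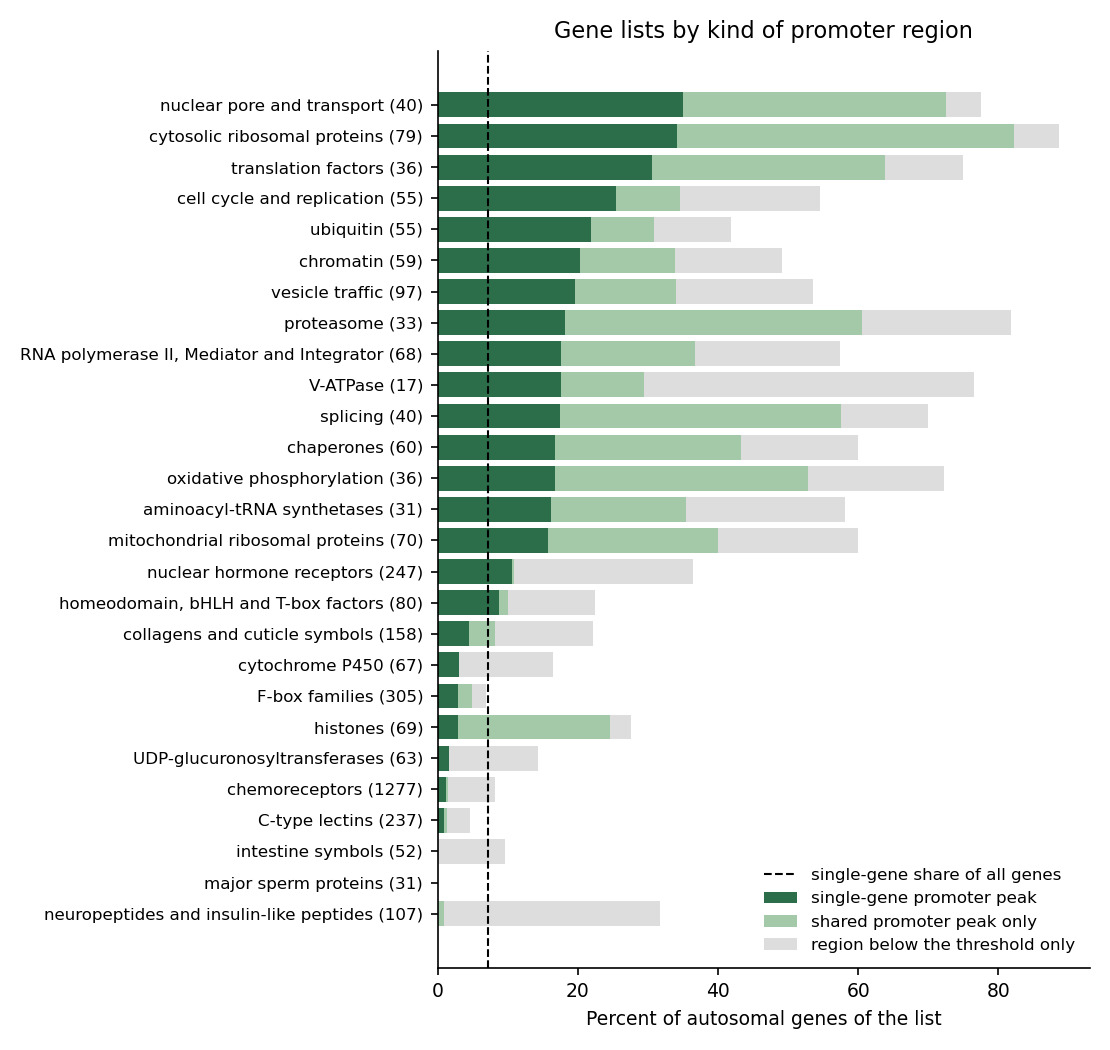
Percent of the autosomal genes of each list (horizontal axis, number of genes in brackets) with a single-gene promoter peak, with a shared promoter peak only, or with only a region below the threshold. The dashed line marks the 7.20% of all autosomal genes with a single-gene promoter peak. Nuclear pore and transport genes (35%), ribosomal protein genes (34.2%) and translation factors (30.6%) stand at the top, and the peptide, sperm protein and intestine lists have no such peak.

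Some promoters are also next to noncoding genes. The same window around the 5′ end of a noncoding gene held 173 of the member summits (13.6%). The largest class was ncRNA with 108 summits, followed by tRNA genes with 25, snoRNA genes with 23 and piRNA genes with 21. Smaller classes were lincRNA (9), pseudogene (6), miRNA (5), snRNA (4) and antisense RNA (2). A summit can count in more than 1 class. No share over other peaks or all promoters is given here, so these counts do not set members apart. The median of the mean relative signal was 2.14 at the snoRNA genes and 1.33 at the tRNA genes, against 1.23 over all members. The peak of cmtr-1 also lay at the snoRNA gene Y53F4B.47, and that of snr-4 at the snRNA gene T11F9.15. The peaks of hsp-1, rps-1, ztf-7 and dld-1 lay at genes of the class ncRNA. At such places the peak cannot be given to the coding or the noncoding gene from position alone.

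Summits of members were rich in G and C in a narrow stretch. The mean G+C content from 50 bp before to 50 bp after the summit was 45.0% ± 7.96 (SD over 1275 regions). In equal windows shifted by 300 bp it was 34.2% on the upstream side and 36.5% on the downstream side. The same window at all 17242 autosomal promoters, centred at the median member distance, had 33.97%. Regions below the threshold at the same kind of position had 37.2%, and autosomal shared, intronic and intergenic peaks had 44.9%, 45.1% and 43.9%. Along the flanks, G+C content was 49.1% at the summit itself and 32.8% at −120 bp. Stronger members were richer still, with 48.9% in the 255 strongest members against 41.4% in the 255 weakest. Members ranked by replicate 1 gave 49.0% and 41.6%, and by replicate 2 gave 48.6% and 41.8%.

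**Figure D5:**
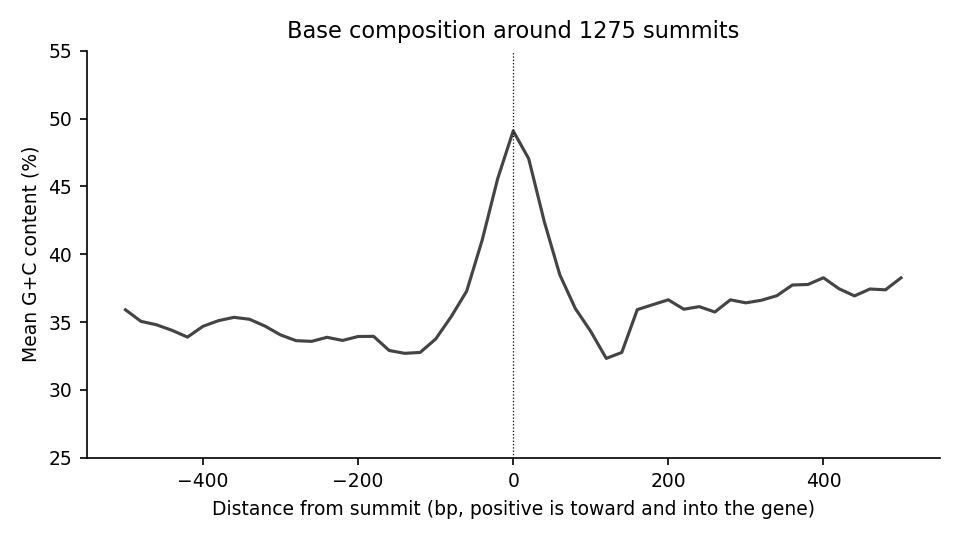
Mean G+C content (vertical axis, percent; the axis does not start at 0) along the sequence around all 1275 member summits (horizontal axis, bp from the summit, positive toward the gene). The content is 49.1% at the summit and 32.8% at −120 bp.

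Of the short sequences ranked, GACGCA had the largest excess at summits over sides, though others, such as GAGAGA, were in more members. Motifs were counted on either strand within 50 bp of the summit, as an exact match of all letters, so that GACGCA is also counted within the longer AGACGCAG, and both are counted within every CTGCGTCTC, whose reverse complement is GAGACGCAG. GACGCA or its reverse complement TGCGTC was in 247 members (19.4%), against 2.67% of upstream and 1.57% of downstream sides and 3.37% of all autosomal promoters. Other peaks held GACGCA often too. It was in 16.0% of autosomal intergenic, 12.1% of intronic and 13.6% of shared promoter peaks, and 16.4% of X single-gene promoter peaks. Of the 27510 8-base sequences ranked by their excess at summits over sides, AGACGCAG came first, in 143 members (11.2%) against 1.41% of all promoters. It was about as common at autosomal intergenic peaks (12.8%) and intronic peaks (9.72%) and less so at shared promoters (5.92%). Most of the members with AGACGCAG held it within the longer CTGCGTCTC, of which the sec-61.G summit printed above has a copy and which was in 129 members (10.1%), against 1.18% of all promoters. GAGAGA was in 22.0% of members against 7.71% of all promoters, and in 32.4% of intergenic peaks.

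Other 8-base sequences were frequent at promoter peaks and rare at peaks outside promoters. These were GCAAACAC (7.06% of members), AAACGCGC (6.196%), AAGTGCGC (5.02%) and GCGCTCCA (4.31%), and like AGACGCAG they were chosen after the ranking was seen. Any of these 4 was in 255 members (20%), against 27.8% of shared promoter peaks, 3.99% of intronic and 3.56% of intergenic autosomal peaks. The share was 10.8% at X single-gene promoters, 2.41% of all autosomal promoters and 2.26% of regions below the threshold at such positions. AGACGCAG stood beside any of them in 27 members. In the gene lists, 5 of 10 chaperone members and 5 of 11 mitochondrial ribosomal protein members held any of the 4, against 3 of 27 ribosomal protein members and 0 of 27 nuclear hormone receptor members. The other lists with at least 10 members ran from 0 of 10 for F-box genes to 4 of 14 for nuclear transport and for cell cycle genes. Counts per list are small and the sequences were chosen after ranking, so these differences are a description only.

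Members with any of these promoter sequences had higher median signals than members without, by amounts that differed among the sequences. Median relative signals were 1.70 and 1.66 for the 228 members with any of the 4 and no AGACGCAG. They were 1.23 and 1.22 for the 116 members with AGACGCAG and none of the 4, and 1.11 and 1.13 for the 904 with neither. Among the 4 the largest gap was at AAGTGCGC, with 2.27 and 2.42 in the 64 members that held it and 1.19 and 1.21 in the rest. The smallest was at GCAAACAC, the most frequent of the 4, with 1.30 and 1.35 against 1.22 and 1.22. AAGTGCGC was in 11.4% of the 255 strongest members and 2.35% of the 255 weakest, and GACGCA in 29.0% and 11.8%. AGACGCAG differed less, with 10.6% and 8.24%, and GAGAGA was in 18.0% and 22.4%. GAGAGA was thus common at summits of any strength, while AAGTGCGC and GACGCA were found more at the strong ones.

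A further pair of 8-base sequences was picked out after the letters of the strongest members were seen. GCGCCAGC or its reverse complement was in 13.3% of the 255 strongest members and 0.392% of the 255 weakest. In all it was in 47 members (3.69%), among them eelo-2 and pcn-1, against 0.267% of all promoters. Shared promoter peaks held it more often (5.33%), and X single-gene promoter peaks held it in 2.09%. AACACGCT or its reverse complement was in 6 of the 25 strongest members (24%), against 12 of the other 1250 (0.96%). The 6 were rpl-3, tasp-1, cdc-48.1, rpl-35, cox-5A and Y39B6A.43. Over all members it was in 18 (1.41%), against 0.986% of shared promoter peaks, 1.69% of exonic peaks and 0.244% of all promoters. Since the sequence was read from the strongest members, the gap between these shares is a description and supports nothing further.

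Textbook sites of nuclear receptors were not frequent. AGGTCA, the half-site that many nuclear receptors bind, was in 2.20% of members against 2.77% of all promoters. The HNF4-type sequences AAAGTCCA and CAAAGTCC were in 0.314% and 0.471% of members, against 0.307% and 0.191% of all promoters. The E2F-type TTTCGCGC was in 2.35% against 0.464%, the E-box CACGTG in 4.39% against 1.59%, and GGGCGG in 5.96% against 2.35%. These shares were not particular to members. At autosomal shared promoter, intronic and intergenic peaks, TTTCGCGC was in 2.37%, 1.33% and 1.21%. At the same 3 kinds of peak, CACGTG was in 2.37%, 7.68% and 5.68%, and GGGCGG in 7.10%, 4.71% and 4.92%. TATAAA was in 5.88% against 13.1%, and GATAAG in 2.82% against 5.13%. At autosomal shared promoter, intronic and intergenic peaks, TATAAA was in 5.72%, 5.94% and 6.74%, and GATAAG in 1.58%, 4.71% and 5.30%. TTTCAG, the letters of the splice acceptor consensus counted here on either strand, was in 7.53% at the summit. It was in 18.0% on the upstream side, 28.6% on the downstream side and 16.6% of all promoters. TGACGTCA was in 1.10% against 0.690%, and CCGGAAGT in 0.0784% against 0.180%.

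The threshold cuts through a continuous range. The lowest members were at nhr-4 (pooled signal 77.4), C49C3.6 (77.4) and sra-25 (77.3). Just below it, at positions that meet the same rule, were F18A11.5 (76.9), C14B1.3 (76.9) and kcmf-1 (76.8). In all, 2882 pooled regions below the threshold lay at such positions, with a median signal of 28.5. The thresholded list took 30.7% of the autosomal single-gene promoter regions of the pooled list, against 18.2% of all its autosomal regions. At the edges of the window, the summit of ccm-3 lay at −500 and that of hif-1 at −497, while ubql-1, with a pooled signal of 641, lay at −501 and was left out. Downstream, Y43B11AR.3 at 195 was inside and mdt-26 at 204 outside.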

How the data were processed

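The deposited data are region lists in narrowPeak layout on ce11, one of 30000 regions for each of the 2 replicates and for both pooled, and a list thresholded by the irreproducible discovery rate (IDR). Per the labels, the replicates are separate biosamples. Signal is the peak caller's value as the authors deposited it. The deposited −log10 of the q value was used only to describe the list, and the summit offset of the deposited lists, named a score here because it has no fixed range, only to place summits. The p-value column was −1 and the score column 0 throughout, so neither was used. The aligner, the caller, the versions and the cutoff of the IDR step were not given in the sources used here. No read counts were analysed, the depth of each sample is unknown, and Wilson intervals and floors (3 counts) cover counting error only. There were 0 unused per-sample columns, and lists on the older ce10 build were not used.

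Gene positions came from the Ensembl release 115 annotation of WBcel235, and sequences from the RefSeq WBcel235 genome. A member's replicate value was the signal of the region that overlapped it by at least 1 bp with the nearest summit. The analysis used Python 3.11.15, numpy 2.4.6, pandas 2.3.3, scipy 1.17.1 and matplotlib 3.10.9. Assignment to genes, replicate matching and motif counting were tested on simulated data. No test of conditions was possible.

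The members and lists were chosen with earlier results of these data known. Genes were named by rule: the 25 strongest members, the strongest of each list, members with no region in a replicate or with the largest replicate gaps, genes with 2 summits, members next to the threshold or the window edges, and the strongest at noncoding genes. The 8-base sequences were chosen after ranking. Alternatives were a narrower window, all transcripts' 5′ ends, distinct intervals, the stronger peaks, single replicates, a larger overlap and other sequence windows.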

Additional observations from a re-analysis of the deposited data

How the results depend on the processing

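Both signal ratios stayed on their side of 1 and the median summit stayed upstream under every alternative run. With the narrower window (−300 to 100 bp), members were 25.4% of autosomal peaks and 6.21% of genes had one. The signal ratio was then 1.4 to other autosomal peaks and 0.695 to shared promoters, and the median distance −149.5 bp. With the 5′ ends of every transcript these values were 34.4%, 7.99%, 1.22, 0.641 and −175.5 bp. In the stronger peaks of the list, 765 members remained under the rule, with 35%, 4.39%, 1.11, 0.859 and −184 bp. With each interval counted once the first ratio was 1.3. An overlap of 50% of the peak gave 95.5% of members in both replicates. With a replicate left out, the ratios ran from 1.26 to 1.28 and from 0.663 to 0.708, the median distance from −177 to −174 bp and the share found in both lists from 94.7 to 98.7%. Of 27 gene list counts, 25 stayed within 1.5 times under the narrow window and 10 when shared promoter peaks were added. That addition turned 3 lists round against the background of all autosomal genes (7.20% with a member, 13.0% with either kind): histones (2.90% became 24.6%), nuclear hormone receptors (10.5% became 10.9%) and homeodomain, bHLH and T-box factors (8.75% became 10%). Motif shares moved with the window, 13 of 14 in the narrower and 10 of 14 in the wider sequence window. AAAGTCCA, with 4 members, was in 0.314% of members against 0.307% of all promoters, but in 0.0784% against 0.0928% in the narrower and 0.627% against 0.731% in the wider window. The cause was not tested. No paired analysis was possible because the study has 1 group. Depth is unknown, so absence of a region cannot be read as absence of binding.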
